A study of Mus musculus with 6 samples.

Results

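The genes described here are 43 heat shock and cytosolic or mitochondrial chaperone genes, chosen by name from the 34745 genes of the deposited expression table, and all 43 were found there. They comprise the heat shock transcription factors, the HSP70, HSP110, HSP90 and small heat shock proteins, the mitochondrial chaperonin, J-domain and BAG proteins, HSP90 co-chaperones, the collagen chaperone and the TRiC chaperonin. They were measured by RNA sequencing of P19, an embryonal carcinoma line of the mouse, which differentiates into neural or cardiac cells under suitable culture conditions. The labels describe 3 libraries of P19 cells given the peptide PDTLN1, with no dose or duration, and 3 libraries of P19 cells with no treatment; both groups come from this 1 line grown in serum-containing medium. Separate cultures are not stated for the 3 libraries of a group, and the p-values below therefore rest on a spread that may be technical.

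Chaperones bind unfolded or partly folded proteins and keep them from aggregating. HSP70 proteins work in cycles of ATP hydrolysis, in which J-domain proteins deliver clients and start hydrolysis, and HSP110 and BAG proteins exchange the nucleotide so that the client is released; HSP90 then finishes the folding of kinases and steroid receptors with its own co-chaperones. On heat or proteotoxic stress the transcription factor HSF1 forms trimers on inverted GAA repeats, the heat shock elements, and induces the stress forms of these proteins, while constitutive forms are made at all times and are abundant in early embryonic and embryonal carcinoma cells.

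Total gene counts ran from 10381307 to 11663081 in PDTLN1 libraries and from 10450134 to 11177756 in control libraries. The summed level of 6 pluripotent cell markers was 2422 to 2515 CPM (counts scaled to a common depth with TMM library factors) in PDTLN1 libraries and 2582 to 2701 CPM in control libraries. The 2 ranges did not overlap, and the part of this difference in the results below was not tested. Pou5f1 made up most of the sum, with means of 1351 CPM in PDTLN1 and 1462 CPM in control libraries. Pou5f1 and Utf1 were lower in PDTLN1 without overlap, beside 9.79% of all genes tested without overlap in either direction. Nanog, Lin28a and Sall4 overlapped, Zfp42 had too few counts to test, and none of the 5 tested markers passed edgeR's adjusted threshold. The extraction text of the labels names retinas; of 8 retina markers none had enough counts to be tested, their summed level was 0.580 to 0.954 CPM in PDTLN1 and 0.767 to 1.07 CPM in control libraries, and Crx, Arr3 and Opn1sw had 0 counts in all 6 libraries. The summed level of 6 blood and immune markers was 16.9 to 18.7 CPM in PDTLN1 libraries and 16.7 to 18.9 CPM in control libraries. In bulk RNA, fewer cells of a type and less RNA per cell cannot be told apart.

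The question the design puts to these genes is whether PDTLN1 induces or represses them. Of the 43 genes, 41 had enough counts to be tested and 0 passed in either direction in edgeR's quasi-likelihood test (adjusted over 13836 genes, threshold 0.05). The same test called 3 of all genes (0.0217%) higher and 0 lower (0%). At an unadjusted p under 0.05 there were 3 of the 41 members, Hspa4l, Cdc37 and Cct4, against 3.99% of all genes, and DESeq2 called 0 of the 41, against 0.101% of all genes. The members' log2 fold changes were split into 21 above 0 and 20 below, with a median of 0.00 beside -0.00 over all genes tested, and they ran from -0.30 for Serpinh1 to 0.24 for Hspa4l. A p that misses the threshold does not show equal levels, so the intervals matter more here. The 95% interval of the fold change lay within 1.5-fold in either direction for 40 of the 41 genes, Serpinh1 being the exception. It did so for 9676 of all 13836 genes tested. The 2 sets are not matched for level, and the median SE was 0.0693 for the members and 0.129 for all genes tested. The counts therefore do not tell whether members are better bounded than genes of like level. Hspa1a and Hspa1b had too few counts for this fit, so these intervals do not cover them.

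**Figure D1:**
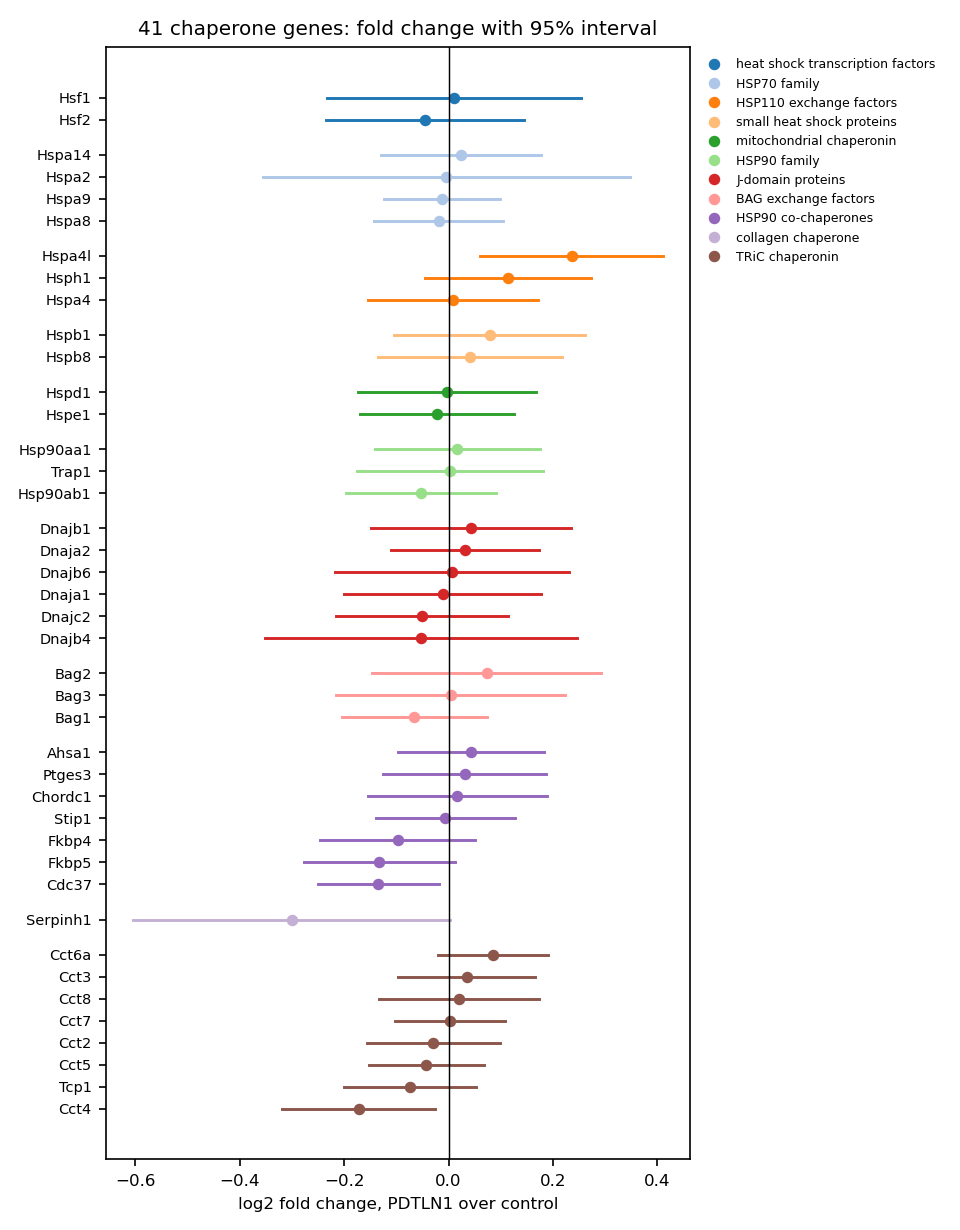
Log2 fold change of PDTLN1 over control for the 41 tested chaperone genes (points), with 95% intervals from edgeR's quasi-likelihood fit (bars), grouped and coloured by role. The intervals of Hspa4l, Cdc37 and Cct4 do not reach 0, and none of the 41 genes passed the adjustment over all genes.

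The members held a steady share of the RNA. Together they took 2.46%, 2.37% and 2.35% of all counts in PDTLN1 libraries 1, 2 and 3, against 2.46%, 2.42% and 2.41% in control libraries 1, 2 and 3, or 2.39% ± 0.0579 in PDTLN1 and 2.43% ± 0.0224 in control libraries (SD, n = 3 each). The shares of the 2 groups overlapped. The level of a typical member in its highest library was 1.16 times that in its lowest (median of the 41). It was 1.23 for the 8493 tested genes whose mean level was at least that of the lowest tested member. That set has only a floor, of 17.3 CPM, and is not matched to the members' levels. The 2 ratios therefore do not tell whether members vary less than genes of like level. Of the 41 members, 30 (73.2%) had a larger SD among PDTLN1 than among control libraries, as did 55.7% of all genes tested; the median coefficient of variation was 6.07% in PDTLN1 libraries and 3.57% in control libraries for the members, and 10.3% and 9.19% for all genes. No test was made of this difference in spread.

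Levels of different genes are compared per length, as mean CPM per kb of merged exons in GENCODE M21. The deposited FPKM use lengths that for Hspa8, Hspb1 and Hsp90ab1 exceed the whole span of the gene in the table, so they are given second. Hsp90ab1, the constitutive cytosolic HSP90, stood first among the members on both scales, with 1984 CPM per kb in PDTLN1 and 2058 CPM per kb in control libraries, and a mean of 1047 FPKM over the 6 libraries that ranked 20th among all genes. It alone took 0.555% to 0.642% of the counts in PDTLN1 libraries and 0.609% to 0.626% in control libraries. Hsp90aa1, the HSP90 form that also responds to heat, followed at 608 and 601 CPM per kb, then Hspa8, the constitutive cytosolic HSP70, at 511 and 518, and Hspd1, the mitochondrial chaperonin HSP60, at 433 and 434, each value for PDTLN1 before control. In the deposited FPKM the second place went to Cct2 and the seventh to Hspa8, so the order below the first place depends on the lengths used. At the low end stood the stress-induced HSP70 genes Hspa1a and Hspa1b.

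**Figure D2:**
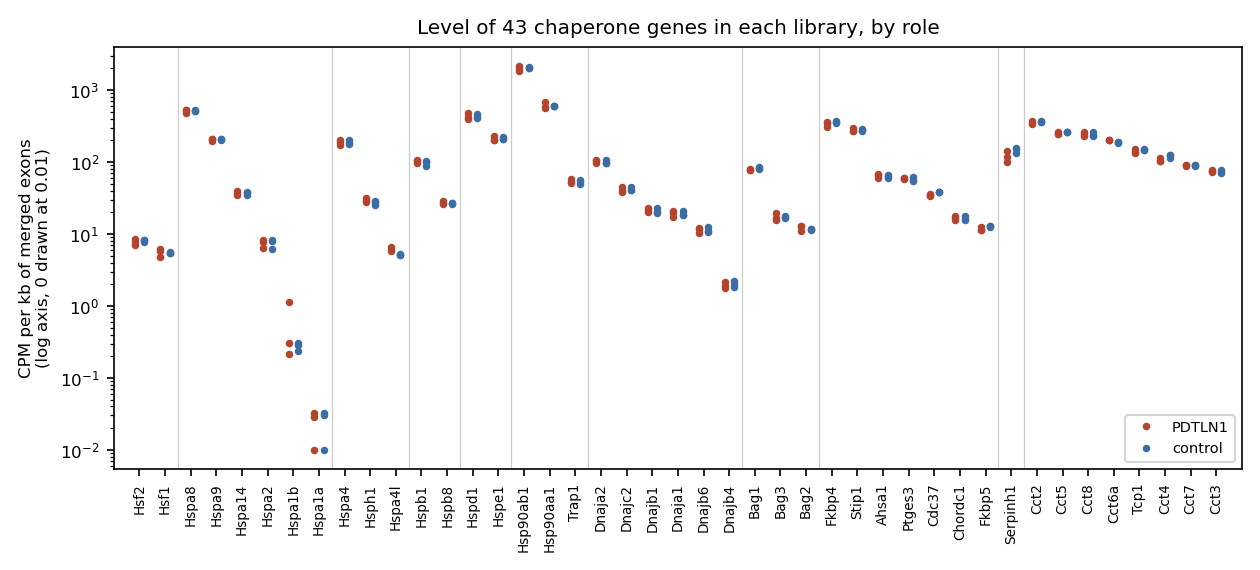
Level of the 43 genes in each of the 6 libraries, as CPM per kb of merged exons on a log axis, ordered by role and, within a role, by level; PDTLN1 libraries are to the left of control libraries for each gene. Hsp90ab1 is the highest gene, and Hspa1b and Hspa1a are the lowest, with Hspa1b in PDTLN1 library 1 nearest to the other genes.

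Hspa1a and Hspa1b, neighbouring genes for the HSP70 form that HSF1 induces on stress, are the usual readout of a heat shock response. Hspa1a had 1, 0 and 1 counts in PDTLN1 libraries 1, 2 and 3, against 1, 0 and 1 counts in control libraries 1, 2 and 3. These counts lie under the 3 counts (0.256 to 0.290 CPM) that a count of 0 allows, so no fold is given. Hspa1b had 33, 7 and 10 counts in PDTLN1 libraries, or 3.19, 0.607 and 0.853 CPM, against 9, 7 and 9 counts in control libraries, or 0.863, 0.655 and 0.805 CPM. PDTLN1 library 1 was high and the other 5 libraries were alike, so the groups overlapped. Neither gene had enough counts to be tested in the filtered fit; with every gene counted at least once kept in, 43 members were tested and 0 passed edgeR's adjusted threshold. For comparison with their always-on relatives, Hspa8 had 2257, 2064 and 2276 CPM in PDTLN1 libraries, against 2221, 2255 and 2207 CPM in control libraries.

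The 2 genes share much of their sequence, which limits what their counts mean. Of the windows of 50 bases in the Hspa1a transcript, 66.3% also occur in transcripts of other genes, and of those in the Hspa1b transcript, 62.3%, all of them in Hspa1a. How the authors treated reads with several matches is not given in the sources used here, so reads in these windows may have been dropped or split. Hspa1a lies at chr17:34969190-34972156 and Hspa1b at chr17:34956436-34959238, both on the minus strand, with the same coordinates in the table and in GENCODE M21 (GRCm38). Their RefSeq promoter windows of 300 bases (GRCm38.p6) are identical at 296 positions. The 150 bases before each start site are shown because these promoters carry the response; capitals mark the heat shock element letters, GAA and TTC separated by NN, from 104 to 97 bases before the start.
Hspa1a, chr17:34972157-34972306, minus strand: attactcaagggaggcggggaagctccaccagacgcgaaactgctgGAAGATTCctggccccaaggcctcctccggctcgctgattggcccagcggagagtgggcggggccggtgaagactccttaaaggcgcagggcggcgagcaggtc
Hspa1b, chr17:34959239-34959388, minus strand: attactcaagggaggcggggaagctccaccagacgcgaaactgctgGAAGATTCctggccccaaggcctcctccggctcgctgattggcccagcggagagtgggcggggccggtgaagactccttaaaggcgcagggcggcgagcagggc

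The same letters were searched in the RefSeq promoter windows (250 bases before to 50 after the start) of the 36 members that have one; Hsf1, Hspa8, Hspa9, Hsp90aa1, Hsp90ab1, Dnajc2 and Cct4 have none in the table. A pair of repeats, GAANNTTC or TTCNNGAA, which read the same on both strands, was found in 17 of 36 members (47.2%) and in 17.0% of 27025 genes with a window. A run of 3 repeats, GAANNTTCNNGAA or its reverse complement TTCNNGAANNTTC, was found in 5 of 36 members (13.9%) and in 0.662% of genes; each such run also contains the pair. A match describes the letters and not a bound site, and a window without one says nothing about HSF1. The members with the longer run were Hspd1, Hspe1, Dnajb6, Hsph1 and Chordc1. The stretches of 30 bases around these runs are shown because they mark the members nearest by sequence to a heat shock element; capitals mark the joined repeats.
Hspe1, chr1:55088053-55088082, plus strand, repeats 89 to 72 bases before the start: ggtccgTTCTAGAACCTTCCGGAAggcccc
Hspd1, chr1:55088053-55088082, minus strand, repeats 144 to 127 bases before a start: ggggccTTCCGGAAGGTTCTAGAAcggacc
Dnajb6, chr5:29735844-29735873, plus strand, repeats 46 to 34 bases before the first start: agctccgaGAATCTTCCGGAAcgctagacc
Chordc1, chr9:18292260-18292289, plus strand, repeats across the start: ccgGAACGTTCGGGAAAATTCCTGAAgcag
Hsph1, chr5:149636279-149636308, minus strand, repeats 16 to 28 bases after a start: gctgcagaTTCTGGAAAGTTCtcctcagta
The first 2 lines are 1 stretch of DNA read on its 2 strands, since Hspd1 (chr1:55077835-55088243) and Hspe1 (chr1:55088132-55091307) are transcribed away from each other and overlap in the annotation.

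Hspd1 and Hspe1 encode HSP60 and its lid HSP10, which fold proteins imported into the mitochondrial matrix. Hspd1 had 1057, 1248 and 1127 CPM in PDTLN1 libraries 1, 2 and 3, against 1235, 1123 and 1081 CPM in control libraries 1, 2 and 3. Hspe1 had 297, 301 and 339 CPM in PDTLN1 libraries, against 330, 311 and 311 CPM in control libraries. Both were lowest in PDTLN1 library 1, and the groups overlapped for both. The ratio of Hspe1 to Hspd1 in deposited FPKM was 0.438 ± 0.0485 in PDTLN1 libraries and 0.443 ± 0.0162 in control libraries (SD, n = 3 each). For Hspd1 and Hspe1 the 95% intervals of the fold change were 0.887 to 1.12 and 0.889 to 1.09. Of the windows of 50 bases in each transcript 44.8% recur in other genes, for Hspd1 chiefly in its pseudogene Hspd1-ps3, so both levels are uncertain.

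Dnajb6, a J-domain protein that holds back aggregation of polyglutamine proteins, had 61.8, 74.4 and 71.1 CPM in PDTLN1 libraries, against 76.1, 64.6 and 65.7 CPM in control libraries. Chordc1, an HSP90-binding protein, had 119, 132 and 126 CPM in PDTLN1 libraries, against 135, 116 and 122 CPM in control libraries. In both genes the highest library was control 1 and the 2 groups overlapped. Of the transcript windows of Dnajb6, 42.8% recur in other genes.

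Per kb of merged exons the transcription factors stood low among the members. Hsf1 had 5.58 and Hsf2 7.80 CPM per kb in PDTLN1 libraries, against 5.53 and 8.04 CPM per kb in control libraries. On this scale they ranked 40th and 37th of the 43 members, and in deposited FPKM 31st and 28th, so their place depends on the lengths used. Hsf1, the master regulator of the heat shock response, had 44.0, 40.7 and 34.1 CPM in PDTLN1 libraries, against 38.6, 40.3 and 38.9 CPM in control libraries. Hsf2, which acts with HSF1 and in development, had 82.1, 74.5 and 68.1 CPM in PDTLN1 libraries, against 78.5, 75.2 and 78.1 CPM in control libraries. Both genes were highest in PDTLN1 library 1 and lowest in PDTLN1 library 3, with the controls between. Their log2 fold changes were 0.01 ± 0.11 (SE) and -0.04 ± 0.08 (SE).

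The HSP70 family gave 4 tested members, with log2 fold changes between -0.02 and 0.02. Beside Hspa8 they were Hspa9, the mitochondrial HSP70 that drives import into the matrix, at 882 ± 29.9 and 890 ± 8.27 CPM, and Hspa2, a form best known from testis, at 19.7 ± 2.68 and 19.8 ± 3.17 CPM (SD, n = 3 each, PDTLN1 before control). Hspa14, a divergent HSP70 that works at the ribosome, had 161, 171 and 152 CPM in PDTLN1 libraries, against 149, 162 and 165 CPM in control libraries. GENCODE M21 holds another protein-coding gene of that name, which overlaps it on the same strand and shares 5.67% of its transcript windows. The groups overlapped for all 4 genes. For Hspa8 the 95% interval of the fold change was 0.906 to 1.08, and 74.8% of its transcript windows recur in other genes.

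Among HSP110 exchange factors Hspa4l had the smallest p of any member. Hspa4l, which encodes a cytosolic nucleotide exchange factor for HSP70 and lies at chr3:40744495-40796103, had 76.8, 67.3 and 69.9 CPM in PDTLN1 libraries, against 60.5, 60.1 and 61.1 CPM in control libraries. Every PDTLN1 library lay above every control library. The means were 71.4 ± 4.91 CPM in PDTLN1 and 60.6 ± 0.514 CPM in control libraries (SD, n = 3 each), and the log2 fold change was 0.24 ± 0.08 (SE), with a 95% interval of the fold from 1.04 to 1.33; edgeR's unadjusted p was 0.0139 and the adjusted p 0.989. Hsph1, the stress-responsive HSP110, had 218, 229 and 200 CPM in PDTLN1 libraries, against 210, 201 and 186 CPM in control libraries, overlapping at a log2 fold change of 0.11 ± 0.07 (SE). Hspa4, the most abundant of the 3 per length, averaged 1038 ± 79.3 CPM in PDTLN1 libraries and 1032 ± 67.3 CPM in control libraries (SD, n = 3 each).

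The small heat shock proteins hold unfolded proteins without ATP. Hspb1, the ubiquitous HSP25 of mice, had 111, 108 and 99.0 CPM in PDTLN1 libraries, against 103, 107 and 91.4 CPM in control libraries. Of its transcript windows 51.6% recur in Hsp25-ps1, so this level is uncertain. Hspb8, a partner of BAG3 in selective autophagy, had 56.4, 52.5 and 50.8 CPM in PDTLN1 libraries, against 51.8, 51.1 and 52.4 CPM in control libraries. Hspb1 and Hspb8 were both highest in PDTLN1 library 1 and overlapped, with log2 fold changes of 0.08 and 0.04 and an SE of 0.08 each.

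The 3 HSP90 genes were each highest in PDTLN1 library 1. Hsp90aa1 had 2655, 2295 and 2218 CPM in PDTLN1 libraries, against 2364, 2356 and 2365 CPM in control libraries. Hsp90ab1 had 6440, 5887 and 5521 CPM in PDTLN1 libraries, against 6098, 6150 and 6267 CPM in control libraries. For both genes the control libraries lay close together inside the range of the PDTLN1 libraries, and the SD was 233 CPM in PDTLN1 against 5.01 CPM in control libraries for Hsp90aa1, and 463 CPM in PDTLN1 against 86.3 CPM in control libraries for Hsp90ab1. Their log2 fold changes were 0.02 ± 0.07 (SE) and -0.05 ± 0.06 (SE). In deposited FPKM the ratio of Hsp90ab1 to Hsp90aa1 was 2.75, 2.91 and 2.83 in PDTLN1 libraries 1, 2 and 3, against 2.93, 2.97 and 3.01 in control libraries 1, 2 and 3. All 3 PDTLN1 ratios were below the lowest control ratio; this ratio was chosen after its values were seen and has no test, and 58.5% of the windows of Hsp90aa1 recur in other genes. Trap1, the mitochondrial HSP90, averaged 137 ± 10.3 CPM in PDTLN1 libraries and 137 ± 9.71 CPM in control libraries (SD, n = 3 each).

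Of the 6 J-domain genes, 5 were highest in control library 1, Dnajb1 there all but level with PDTLN1 library 1, and Dnaja2 was highest in PDTLN1 library 2. Dnajb1, the HSP40 that HSF1 induces with HSP70, had 73.3, 65.5 and 69.8 CPM in PDTLN1 libraries, against 73.3, 65.7 and 63.5 CPM in control libraries. Dnajc2, which recruits Hspa14 to the ribosome, had 196, 225 and 194 CPM in PDTLN1 libraries, against 226, 205 and 207 CPM in control libraries. The groups overlapped in both. Of the remaining genes, Dnaja1 and Dnaja2, general cytosolic HSP40s, averaged 165 ± 15.8 and 303 ± 16.0 CPM in PDTLN1 libraries, against 166 ± 11.8 and 297 ± 16.3 CPM in control libraries (SD, n = 3 each). Dnajb4 was the lowest tested member, at 17.0 ± 1.79 CPM in PDTLN1 libraries and 17.6 ± 1.82 CPM in control libraries (SD, n = 3 each).

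BAG proteins release clients from HSP70 and link it to degradation. Bag1, tied to the proteasome, had 108, 105 and 104 CPM in PDTLN1 libraries, against 108, 110 and 114 CPM in control libraries. Bag2, an inhibitor of the ubiquitin ligase CHIP, had 33.4, 39.3 and 38.9 CPM in PDTLN1 libraries, against 36.0, 34.3 and 35.9 CPM in control libraries. The HSF1 target Bag3, which leads clients to autophagy, averaged 44.2 ± 4.71 and 44.1 ± 1.18 CPM (SD, n = 3 each, PDTLN1 before control). The ranges overlapped in all 3 genes.

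Among HSP90 co-chaperones 2 of 7 had groups that did not overlap, both with lower PDTLN1 values, where 4.98% of all genes tested did so in that direction. Cdc37, which brings protein kinases to HSP90, had 299, 279 and 282 CPM in PDTLN1 libraries, against 318, 310 and 316 CPM in control libraries. Its means were 287 ± 10.5 CPM in PDTLN1 and 315 ± 4.29 CPM in control libraries (SD, n = 3 each), and the log2 fold change was -0.13 ± 0.05 (SE); edgeR's unadjusted p was 0.0279 with an adjusted p of 0.989. Fkbp5, an immunophilin of steroid receptor complexes and a known target of the glucocorticoid receptor, had 106, 109 and 117 CPM in PDTLN1 libraries, against 119, 123 and 123 CPM in control libraries. Every PDTLN1 library of both genes lay below every control library, and for Fkbp5 the log2 fold change was -0.13 ± 0.06 (SE, edgeR adjusted p 0.989). Its paralogue Fkbp4 averaged 939 ± 73.9 CPM in PDTLN1 libraries and 1004 ± 32.3 CPM in control libraries (SD, n = 3 each), with overlap. Stip1, which joins HSP70 to HSP90, Ahsa1, which stimulates the HSP90 ATPase, and Ptges3, the p23 protein that closes the cycle, had log2 fold changes of -0.01, 0.04 and 0.03, each with an SE of 0.06 or 0.07.

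TRiC is a ring of 8 different subunits, each present in equal number in the complex, that folds actin and tubulin. Their log2 fold changes ran from -0.17 for Cct4 to 0.09 for Cct6a, with 4 above 0, 4 below and 0 past edgeR's adjusted threshold. Cct4, at chr11:22990519-23003780, had 481, 435 and 436 CPM in PDTLN1 libraries, against 529, 521 and 474 CPM in control libraries. Here PDTLN1 library 1 lay above control library 3, so the groups overlapped; the log2 fold change was -0.17 ± 0.06 (SE), and edgeR's unadjusted p was 0.0258 with an adjusted p of 0.989. Cct6a, at chr5:129786998-129846371, had 725, 730 and 724 CPM in PDTLN1 libraries, against 688, 695 and 670 CPM in control libraries. The 3 PDTLN1 values were tightly grouped above all controls, at a log2 fold change of 0.09 ± 0.05 (SE, edgeR adjusted p 0.989). The span of Cct6a overlaps 3 annotated genes, among them the protein-coding Psph on the other strand. How strand was handled is not given, and the transcript windows of Cct6a were not compared with other genes, so this level is uncertain. Tcp1, the founding subunit, had 751, 678 and 685 CPM in PDTLN1 libraries, against 743, 751 and 732 CPM in control libraries, with overlap. The remaining subunits Cct2, Cct3, Cct5, Cct7 and Cct8 had log2 fold changes between -0.04 and 0.03, and the level of Cct7 in its highest library was 1.03 times that in its lowest, the smallest such ratio of any member. In deposited FPKM the highest subunit, Cct2, stood above the lowest, Cct3, by 9.06 ± 0.748 times in PDTLN1 libraries and 9.47 ± 0.385 times in control libraries (SD, n = 3 each). Per kb of merged exons Cct2 had 355 and Cct3 75.5 CPM in PDTLN1 libraries, against 362 and 73.7 CPM in control libraries, so RNA levels of the 8 subunits were unequal on both scales. The size of this gap depends on the lengths used. For Cct3 they were 9402 bases in the FPKM and 6370 in merged exons, for Cct2 1962 and 2557, while their longest coding transcripts have 1977 and 1959 bases. Without a length, Cct2 had 908 and Cct3 481 CPM in PDTLN1 libraries, against 927 and 470 CPM in control libraries.

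**Figure D3:**
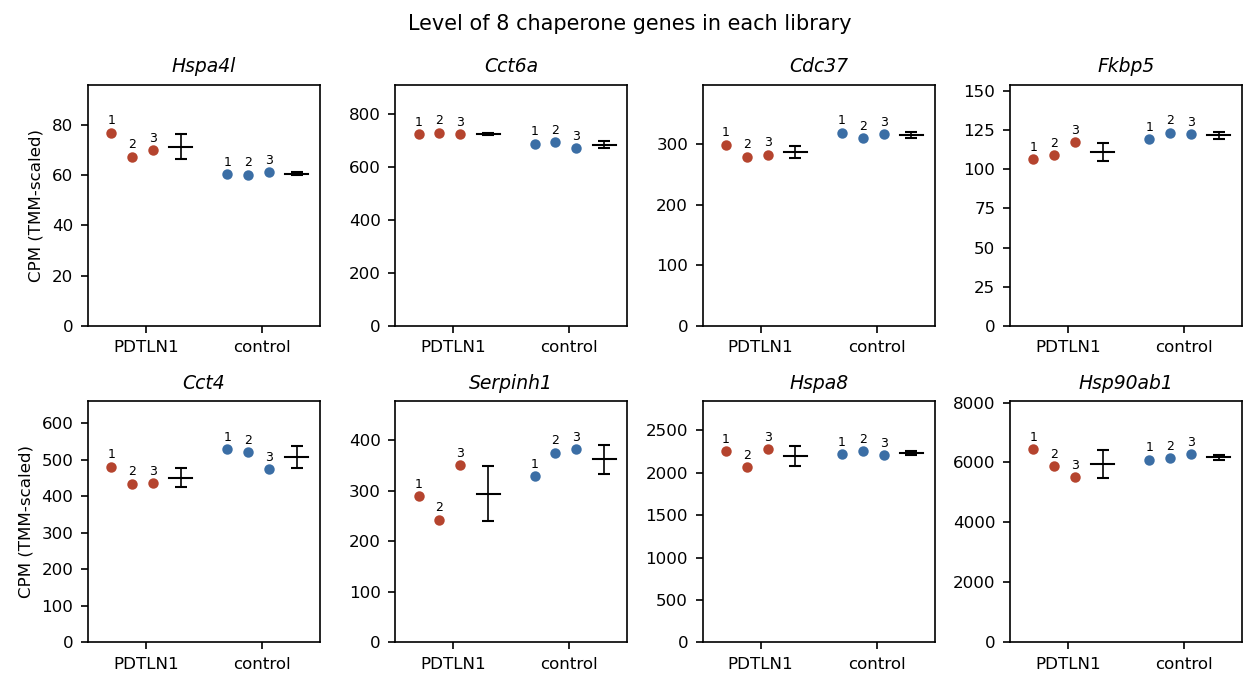
TMM-scaled CPM of 8 chaperone genes in each library, numbered 1 to 3, with the mean and SD of each group at its right (n = 3 each). Hspa4l and Cct6a lie higher in every PDTLN1 library, Cdc37 and Fkbp5 lower, and Cct4, Serpinh1, Hspa8 and Hsp90ab1 overlap.

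In all, the 2 groups did not overlap for 4 of the 41 tested members (9.76%), beside 9.79% of all genes tested. PDTLN1 was the higher group for Hspa4l and Cct6a (4.81% of all genes) and the lower for Cdc37 and Fkbp5 (4.98% of all genes). The members' share is that of the background. With both libraries numbered 1 left out, edgeR called 0 of the 41 members and 0.652% of all genes, the smallest adjusted p of a member being 0.189 for Cct4. In that comparison of 2 against 2 libraries the groups did not overlap for 24 members (58.5%), beside 50.5% of all genes. Of these members 11 were higher, beside 24.6% of all genes, and 13 lower, beside 25.9%. Distances between whole libraries (chi-square over degrees of freedom) did not follow the groups. PDTLN1 library 1 stood at 5.93 and 5.22 from control libraries 2 and 3, but at 13.7 and 9.25 from PDTLN1 libraries 2 and 3. Control library 1 stood at 6.95 and 6.23 from PDTLN1 libraries 2 and 3, but at 8.25 and 9.86 from control libraries 2 and 3. In the 2 against 2 comparison, treatment cannot be told apart from this likeness.

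Serpinh1 is the odd member, since the collagen chaperone HSP47 works in the endoplasmic reticulum and not in the cytosol. It had 288, 242 and 350 CPM in PDTLN1 libraries 1, 2 and 3, against 329, 375 and 381 CPM in control libraries 1, 2 and 3. PDTLN1 library 3 lay above control library 1, so the groups overlapped. The means were 294 ± 54.1 CPM in PDTLN1 and 362 ± 28.7 CPM in control libraries (SD, n = 3 each), and the log2 fold change was -0.30 ± 0.13 (SE, edgeR unadjusted p 0.0520, adjusted p 0.989). Without PDTLN1 library 2 the log2 fold change was -0.18. The ratio of the highest to the lowest library, 1.58, was the largest of any tested member, before 1.35 for Hspa2.

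The libraries differed more in the chaperones of the endoplasmic reticulum than in the members. On a log2 CPM scale centred on each gene's mean, the median of the 41 members was 0.01, 0.02 and -0.01 in PDTLN1 libraries 1, 2 and 3, against 0.04, -0.01 and -0.01 in control libraries 1, 2 and 3. The median of 15 endoplasmic reticulum chaperones, among them Hsp90b1, the HSP90 of that compartment, was 0.13, -0.14 and -0.18 in PDTLN1 libraries, against -0.09, 0.07 and 0.25 in control libraries. Of those 15 genes, 11 (73.3%) were highest in control library 3, where 3 of the 41 members (7.32%) were, beside 18.1% of all genes tested. Serpinh1 stood at -0.17, -0.42 and 0.11 in PDTLN1 libraries, against 0.02, 0.21 and 0.24 in control libraries. Like the median of the endoplasmic reticulum chaperones it was highest in control library 3; unlike that median it was above 0 in PDTLN1 library 3 and below 0 in PDTLN1 library 1. PDTLN1 library 1 held the highest value of 11 members (26.8%), beside 17.4% of all genes tested, and control library 1 that of 12 (29.3%), beside 16.6%. The lowest value lay in PDTLN1 libraries 1, 2 and 3 for 10 members each (24.4%), beside 17.3%, 21.5% and 14.5% of all genes. In control libraries 1, 2 and 3 it lay for 2, 2 and 7 members (4.88%, 4.88% and 17.1%), beside 16.2%, 13.2% and 17.3%. These are descriptions with no test, and 0 of the 15 endoplasmic reticulum genes passed edgeR's adjusted threshold between the groups, with 0 at an unadjusted p under 0.05 and 0 called by DESeq2.

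**Figure D4:**
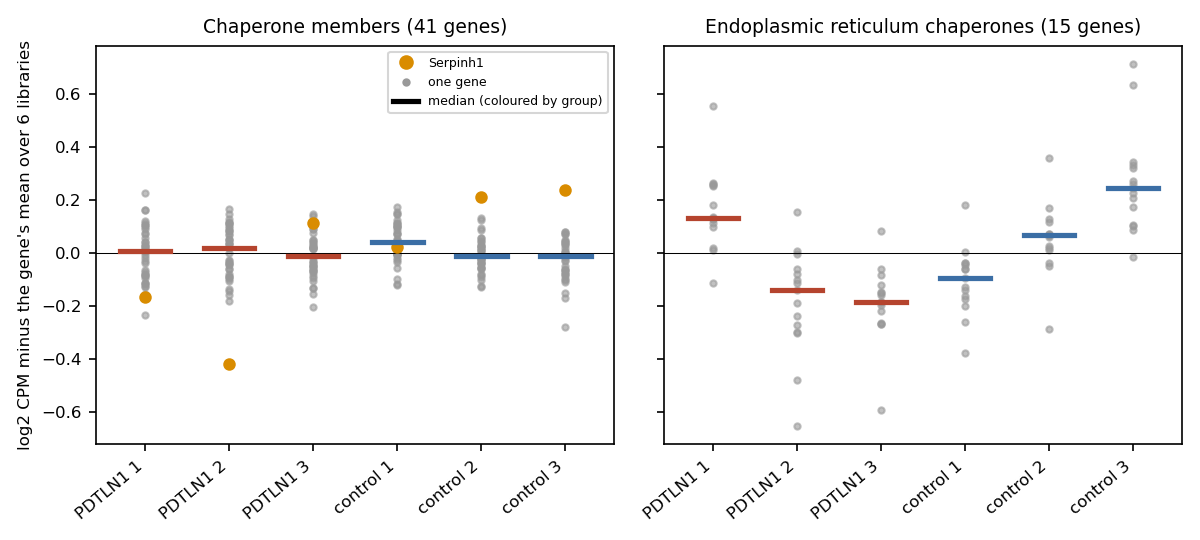
Log2 CPM of each gene minus its mean over the 6 libraries, for the 41 tested chaperone genes (left) and 15 endoplasmic reticulum chaperones (right); each point is a gene, bars are medians and Serpinh1 is orange. The medians of the left panel stay within 0.04 of 0, while those on the right run from -0.18 to 0.25.

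The rest of the chaperone network gave the same count. Of 76 further heat shock, J-domain, cofactor, prefoldin and mitochondrial quality control genes, 65 were tested and 0 passed edgeR's adjusted threshold, with 1 at an unadjusted p under 0.05 and 0 called by DESeq2; 28 lay above 0 and 37 below, with a median of -0.02 on the log2 fold scale. The groups did not overlap for 9 of the 65 (13.8%, beside 9.79% of all genes), 1 with higher PDTLN1 values (beside 4.81%) and 8 with lower (beside 4.98%). Above 0 lay 2 of 9 further heat shock factors and proteins, 12 of 21 further J-domain genes, 3 of 17 further cofactors of HSP70 and HSP90, 5 of 9 prefoldin and TRiC partners and 6 of 9 mitochondrial quality control genes, beside 49.7% of all genes tested. Lower values without overlap were found in 1 of the J-domain genes, 5 of the cofactors and 2 of the prefoldin and TRiC partners. Unc45a, a myosin chaperone that binds HSP90, had 39.2, 41.2 and 42.9 CPM in PDTLN1 libraries, against 50.1, 45.9 and 47.3 CPM in control libraries. It had the smallest p of the 65, with a difference of -0.22 ± 0.08 (SE) on the log2 fold scale and an adjusted p of 0.989 in edgeR. Dnaja3, the mitochondrial J-domain protein, had 75.2, 74.8 and 75.3 CPM in PDTLN1 libraries, against 87.2, 81.3 and 79.6 CPM in control libraries. Stub1, the ubiquitin ligase CHIP that tags HSP70 clients, had 98.38, 91.5 and 94.1 CPM in PDTLN1 libraries, against 106, 106 and 98.45 CPM in control libraries. All 3 genes were lower in every PDTLN1 library than in the lowest control, Stub1 by less than 0.1 CPM. Of the 11 genes with too few counts to test, Hspb3, Hspb7, Dnajb3, Dnajb8 and Dnajb13 had 0 counts in all 6 libraries.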

How the data were processed

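The authors deposited whole-number counts per gene and library, not normalized, with FPKM beside them, per the file headers. Per the submitters' processing notes, Bowtie 0.12.2 and the builds mm8 and mm9 were named with no role; which counting tool and gene models were used, and how strand and multiply matching reads were handled, is not given in the sources used here. The treatment text is the same for all 6 samples, so groups follow the treatment label. The table's coordinates equal those of GENCODE M21 (GRCm38) for 28 of the 43 members, and gene coordinates are printed only for these. The members and all lists were chosen with earlier results of these data known. Counts were tested with edgeR 4.0.16 in R 4.3.3 (filterByExpr, TMM, robust glmQLFit and glmQLFTest, two-sided, Benjamini-Hochberg over 13836 genes, threshold 0.05), with DESeq2 1.42.0 as an alternative; the steps were tested on simulated data. The SE is the fold change divided by the root of the F statistic, and 95% intervals use the fit's t distribution. Named with values in every library are the 2 members of each role with the smallest p, members whose groups did not overlap, the core genes Hsf1, Hspa1a, Hspa1b, Hspa8, Hsp90aa1, Hsp90ab1, Hspd1, Hspe1, Hsph1, Dnajb1 and Tcp1, and Dnajb6 and Chordc1, added for their promoters after their values were seen; of other chaperones, the 3 with the smallest p. Centred levels use log2 CPM with a prior count of 0.5. No 2 libraries were duplicates within counting noise. All 12 measurement columns belong to the 6 libraries. Zero counts are read as up to 3 counts, for counting error only.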

Additional observations from a re-analysis of the deposited data

How the results depend on the processing

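The number of members past the adjusted threshold was 0 in all 13 alternatives, and so was that of the other chaperone genes. For all genes, the 3 calls became 1 with the replicate number as a block, 14 with DESeq2, 8 with no filter and 91 with both libraries numbered 1 left out. In the last of these, treatment cannot be told apart from the likeness of whole libraries described above. Leaving out 1 library gave 2 to 13 calls, with 13 without control library 1, 5 without control library 3, 8 without PDTLN1 library 1 and 6 without PDTLN1 library 2. The members' median log2 fold change of 0.00 ran from -0.02 to 0.02 without any 1 library and was 0.0343 without both numbered 1. The range of the members' centred medians across libraries, 0.0505 log2 units, was 0.0148 without control library 1, up to 0.0573 without any other library, and 0.0248 without both numbered 1; the cause was not tested. Of 533 member values under the alternatives 63, from 25 members, changed sign, none of them called. The log2 fold change of Hspa4l ran from 0.18 to 0.28, of Cct4 from -0.22 to -0.14, of Cdc37 from -0.17 to -0.12, and of Serpinh1 from -0.45 without PDTLN1 library 3 to -0.18 without PDTLN1 library 2. Deviations from the group means correlated across genes at -0.34, -0.11 and -0.08 between libraries of the same number. Correlations between libraries of different numbers are not given here, so these values alone cannot decide whether the number pairs the libraries. Under the replicate block the members' median was -0.00 and no member was called. The 3 libraries a group limit what can be told apart, as do overlapping genes and shared sequence. The spans of 18 of the 43 members overlap another annotated gene. Of the 42 members checked for shared sequence, 11 had over 20% of their transcript windows in other genes. These members were Hspa1a, Hspa1b, Hspa8, Hspb1, Hspd1, Hspe1, Hsp90aa1, Dnaja1, Dnajb6, Ptges3 and Tcp1.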
